A study of Mus musculus with 2 samples.

Results

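The 9 transcription regulators followed here across the surface phenotype of sorted bone marrow cells were Hlf, Mecom, Meis1, Mllt3, Prdm16, Runx1, Erg, Lmo2 and Etv6. The list names known stem cell factors and was drawn up with earlier results of these data known, though no measured value was a criterion, and all 9 are among the 31053 genes of the deposited count matrix. The cells are LSK cells, free of lineage markers and positive for Sca-1 and c-Kit, the bone marrow fraction that holds hematopoietic stem cells (HSCs) and multipotent progenitors (MPPs). They were sorted from unmodified C57BL/6JRj mice, 4 young ones of 3 to 5 months and 4 old ones of 22 to 28 months, and the animals of an age entered 1 library. In CITE-Seq, each droplet yields a cell's mRNA together with the tags of antibodies bound to its surface, both counted as unique molecular identifiers (UMIs), so that each UMI stands for 1 captured molecule. The barcodes of the 2 libraries carry the suffix 1 or 2. Because no label says which suffix is the young library, no comparison of the ages was made, and suffixes are given side by side only to show where the libraries differ. Cells are not replicates of a condition, and both libraries, which differ in age, were not used as replicates of each other. No test was run, gates are compared within each suffix as well as over both, and all intervals are 95% intervals for counting error alone.

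HSCs sit at the top of blood formation, rarely divide, and lose self-renewal as they become MPPs and then progenitors of single lineages. In mice, the SLAM markers follow this path: HSCs carry CD150 and lack CD48, and MPPs lose CD150 and gain CD48. The regulators examined here act at different levels. Hlf, a PAR-domain bZIP factor, and Mecom, which encodes the zinc finger factor EVI1, are used as marks of HSCs. Prdm16 is a zinc finger relative of Mecom with a role in HSC maintenance. Meis1 is a homeobox factor that binds DNA with PBX and HOX proteins. Mllt3 encodes AF9, a reader of acylated histones that recruits DOT1L and elongation factors and is known to maintain HSCs. Runx1, Erg and Etv6 are a RUNX factor and a pair of ETS factors that blood stem cells need to form or to persist. Lmo2 is a LIM-only adaptor that joins TAL1, GATA factors and LDB1 in 1 complex.

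Of 4688 cells, 4068 had under 10% mitochondrial UMIs and over 1500 detected genes, and 3986 of these had tag values, 1497 of suffix 1 and 2489 of suffix 2. No barcode was shared by the suffixes. A cell was CD150-high at or above the 75th percentile of the CD150 tag of its suffix and CD48-low at or under the 25th percentile of the CD48 tag. These percentiles fell at 40 and 224 tags for suffix 1 and at 407 and 42 tags for suffix 2, so a gate holds the extreme cells of each library and not the same tag counts. The CD150-high CD48-low gate, called the stem cell gate here, held 555 cells (172 of suffix 1 and 383 of suffix 2). The CD150-low CD48-low gate held 454 cells, the CD150-high CD48-high gate 450 and the CD150-low CD48-high gate 2527. The median depth of a cell in these gates was 13334, 11556, 16660 and 16343 UMIs.

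Kit and Ly6a (Sca-1), which define the sorted fraction, had a UMI in 74.0 to 89.3% and in 90.9 to 93.3% of the cells of the gates, and the T cell gene Cd3e had none in any gate. All 9 HSC markers (among them Procr, Slamf1 and Fgd5) had UMIs in the stem cell gate, and their summed level was 1192 CPM (UMIs of a gene scaled to a common total of 1e6 UMIs) there against 925, 742 and 411 CPM in the gates in the order above. Slamf1, the gene of CD150, ran from 50.0 CPM in the stem cell gate to 1.75 CPM in the CD150-low CD48-high gate. The HSC markers of the stem cell gate summed to 794 CPM in suffix 1 and 1362 CPM in suffix 2, and its 8 cycling markers to 249.5 and 26.6 CPM, so the gate of suffix 1 held more cycling transcripts. The stem cell gate had the highest HSC sum in each suffix. The CD150-low CD48-low and CD150-high CD48-high gates of suffix 2 (1112 and 1036 CPM) still lay above the stem cell gate of suffix 1. Other cells were scarce. In the gate where each was highest, erythrocyte markers summed to 57.0 CPM (CD150-low CD48-low, nearly all from suffix 2), endothelial and stromal markers to 10.8 CPM (stem cell gate), and macrophage and neutrophil markers to 9.45 CPM (CD150-high CD48-high). Plasma and B cell markers ran from 56.0 CPM in the CD150-high CD48-high gate to 3989 CPM in the CD150-low CD48-high gate, which goes from 2527 to 2516 cells when cells with over 10% immunoglobulin UMIs (12 among all kept cells) are left out, and T and NK cell markers from 7.45 to 175 CPM, nearly all from Nkg7. Leaving out the immunoglobulin-rich cells moved no class of a regulator. Free RNA bears on shares of cells with a UMI. Igkc, an immunoglobulin gene of plasma and B cells, had a UMI in 34.1 to 44.6% of the cells of every gate, whereas Mpo, a granule gene of myeloid progenitors, had a UMI in 1.98% of the stem cell gate and 41.5% of the CD150-low CD48-high gate. Mpo does not stand for all myeloid genes. The myeloid primed list (Mpo, Elane, Ctsg, Prtn3 and Ms4a3) summed to 851, 708, 720 and 1109 CPM in the gates in the order above.

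Levels were summed over the cells of a gate and given as CPM, and each gate was set against the stem cell gate as a ratio. A ratio at or under 0.5 is called lower, one at or over 2 higher, and one from 0.8 to 1/0.8 level. The same ratios were taken for every gene with at least 100 UMIs over both gates, which all 9 regulators passed in all comparisons. Leaving the stem cell gate by loss of CD150 alone, 1 of the 9 was lower (Mllt3), 5 were level (Meis1, Runx1, Erg, Lmo2 and Etv6), none was higher, and Hlf, Mecom and Prdm16 lay between these classes. Over all 9139 genes tested there, 1.51% were lower, 1.09% higher and 77.7% level. Gaining CD48 alone, none was lower or higher and 7 were level, with Mllt3 and Mecom between, against 0.626% lower, 3.44% higher and 69.9% level of 9747 genes. After both changes, in the CD150-low CD48-high gate, 3 were lower (Mllt3, Mecom and Prdm16), 3 were level (Runx1, Erg and Etv6), none was higher, and Hlf, Meis1 and Lmo2 lay between. The level count there rested on the library, with 5 in suffix 1, where Hlf and Lmo2 were level too, and 2 in suffix 2, where Runx1 (0.785) lay between. All 3 were lower in that gate under each of the 15 alternative ways of processing tried. The background there was 7.56% lower, 8.41% higher and 47.6% level of 11337 genes. The median ratio of the 9 regulators was 0.965, 0.895 and 0.695 in the 3 gates, and that of all tested genes 1.03, 1.05 and 1.03. With so few genes and 1 library per age, these shares describe the list and do not set it apart from other genes.

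**Figure D1:**
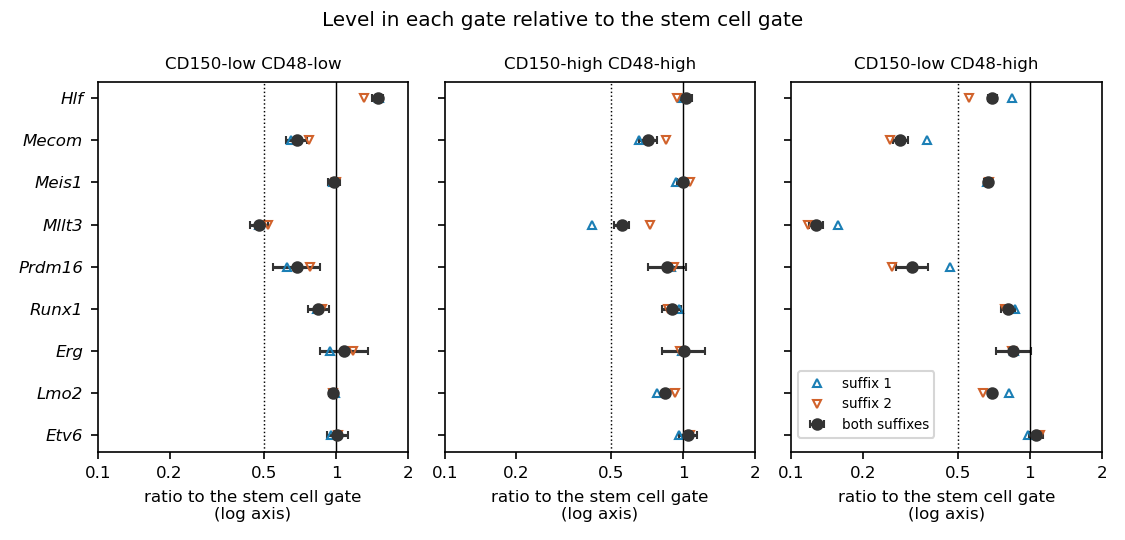
Ratio of the level in each gate to the stem cell gate (log axis) for the 9 regulators, with open triangles for the suffixes and filled circles with 95% intervals for both together. The dotted line marks 0.5. Mllt3 is farthest to the left in all 3 gates (0.475, 0.552 and 0.127), Hlf lies to the right of 1 in the CD150-low CD48-low gate (1.49), and Etv6 stays near 1 throughout.

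Mllt3 had the lowest ratio of the 9 regulators in every gate outside the stem cell gate and in each suffix. The ranking on loss of CD150 depended on the cells taken. Over cells with over 2500 genes and under 5% mitochondrial UMIs, Prdm16 (0.234) and Mecom (0.431) lay below Mllt3 there. The gene lies on the minus strand of chr4:87769925-88033364 (GRCm38, GENCODE M21). The promoters of 3 genes are printed as representatives of the 3 patterns found here: Mllt3 (below the stem cell gate in every other gate), Meis1 (level until both markers have changed) and Hlf (highest on loss of CD150). Of the 9 genes, 8 matched the promoter table used here, with 13 entries in all. Each promoter shown is the stretch of 250 bases before the RefSeq start (GRCm38.p6), 5′ to 3′ on the strand of the gene, with capitals for any match to TGTGGT (RUNX), CCGGAA (ETS), TGACAG (MEIS), AGATAA (EVI1 and GATA) or TTACGTAA (PAR bZIP) on either strand. The first listed start of Mllt3 lies after chr4:88033408-88033657, minus strand.
Mllt3: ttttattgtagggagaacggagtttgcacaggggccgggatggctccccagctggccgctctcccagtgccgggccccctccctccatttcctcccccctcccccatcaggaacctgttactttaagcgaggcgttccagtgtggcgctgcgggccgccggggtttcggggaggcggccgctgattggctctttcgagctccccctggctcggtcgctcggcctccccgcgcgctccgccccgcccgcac
It holds none of these motifs. Among 32851 promoters of this length, 14% hold TGTGGT, 12% CCGGAA, 15.9% TGACAG, 9.99% AGATAA and 0.113% TTACGTAA, and a match in letters is not a bound site. Mllt3 has a further listed start, which the counts do not tell from the first.

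In the stem cell gate Mllt3 stood at 200 CPM in suffix 1 and 283 CPM in suffix 2. It was 94.99 and 147 CPM in the CD150-low CD48-low gate, 83.1 and 204.5 CPM in the CD150-high CD48-high gate, and 31.5 and 33.3 CPM in the CD150-low CD48-high gate. The stem cell gate was thus the highest and the CD150-low CD48-high gate the lowest in both suffixes, while the order of the gates between them differed: in suffix 1 the interval of their ratio held 1, and in suffix 2 the CD150-high CD48-high gate was higher. Over both suffixes the ratio to the stem cell gate was 0.475 (0.435 to 0.519) on loss of CD150, 0.552 (0.514 to 0.593) on gain of CD48 and 0.127 (0.118 to 0.135) after both. Only 1.29%, 1.18% and 0.838% of the tested genes had a lower ratio in these gates. The first ratio sits at the limit of the class, since it was 0.474 (0.404 to 0.556) in suffix 1 and 0.520 (0.465 to 0.579) in suffix 2. With gates at the 90th and 10th percentiles in place of the 75th and 25th it was 0.663. The second differed more between the suffixes, with 0.415 (0.362 to 0.477) and 0.723 (0.665 to 0.786), and was 0.245 over cells with over 2500 genes and under 5% mitochondrial UMIs. With every cell thinned to 9000 UMIs, 80.4% of the cells of the stem cell gate had an Mllt3 UMI, against 54.6%, 60.8% and 22.9% in the other gates (unthinned 86.8%, 63.9%, 78.0% and 38.2%).

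Mecom followed Mllt3 with smaller differences, and its relative Prdm16 resembled it at a lower count. Mecom lies at chr3:29951296-30548008 and Prdm16 at chr4:154316125-154636873, both on the minus strand. In the stem cell gate Mecom stood at 121 CPM (suffix 1) and 166 CPM (suffix 2). The values were 78.0 and 127 CPM in the CD150-low CD48-low gate, 78.9 and 140 CPM in the CD150-high CD48-high gate, and 44.8 and 42.8 CPM in the CD150-low CD48-high gate. In each suffix the order was stem cell gate, CD150-high CD48-high, CD150-low CD48-low and CD150-low CD48-high, and both middle gates could not be told apart beyond counting error. The ratios over both suffixes were 0.683 (0.616 to 0.756), 0.714 (0.655 to 0.778) and 0.286 (0.266 to 0.307). Under the same stricter cell filter as for Mllt3 the first and second were lower, at 0.431 and 0.339. A Mecom UMI was found in 70.1% of thinned cells of the stem cell gate and 32.5% of the CD150-low CD48-high gate (unthinned 82.5% and 50.6%).

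Prdm16 stood at 26.2 and 34.0 CPM in the stem cell gate, on 59 and 179 UMIs, and at 12.1 and 9.01 CPM in the CD150-low CD48-high gate. The gates between held 16.2 and 26.4 CPM (CD150-low CD48-low) and 23.2 and 31.3 CPM (CD150-high CD48-high). Prdm16 was lower in the CD150-low CD48-high gate in both suffixes, with ratios of 0.461 (0.344 to 0.626) and 0.265 (0.219 to 0.322). Its ratio on gain of CD48 alone was 0.858 with an interval that held 1 (0.715 to 1.03), and on loss of CD150 alone it was 0.684 (0.543 to 0.857). In suffix 2 alone the interval on loss of CD150 also held 1 (0.586 to 1.02). At these counts every step between neighbouring gates of suffix 1 was within counting error. The ratio of Prdm16 on loss of CD150 was 0.234, or lower, over cells with over 2500 genes and under 5% mitochondrial UMIs. On gain of CD48 it was 0.570 with gates at the medians.

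Hlf went the other way on loss of CD150. The gene lies at chr11:90336536-90390895 on the minus strand, and its promoter (chr11:90390918-90391167) holds 1 ETS match.
Hlf: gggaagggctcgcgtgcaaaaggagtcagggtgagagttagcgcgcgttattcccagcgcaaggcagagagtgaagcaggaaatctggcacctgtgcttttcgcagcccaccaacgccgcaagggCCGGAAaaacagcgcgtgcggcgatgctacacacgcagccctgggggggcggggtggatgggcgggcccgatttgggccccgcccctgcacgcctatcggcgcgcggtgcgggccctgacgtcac
Hlf was 432 CPM in suffix 1 and 322 CPM in suffix 2 in the stem cell gate, and 653 and 419 CPM in the CD150-low CD48-low gate. It stood at 426 and 302.5 CPM in the CD150-high CD48-high gate and at 365 and 179 CPM in the CD150-low CD48-high gate. The CD150-low CD48-low gate was therefore the highest and the CD150-low CD48-high gate the lowest in both suffixes, and the stem cell gate and the CD150-high CD48-high gate differed by no more than counting error. The ratio on loss of CD150 was 1.49 over both suffixes (1.41 to 1.57), 1.51 in suffix 1 and 1.30 in suffix 2, and 95.8% of the tested genes had a lower ratio. On gain of CD48 it was 0.986 and 0.941 in the suffixes, both with intervals that held 1 (but 0.534 over both suffixes in cells with over 2500 genes and under 5% mitochondrial UMIs), and the pooled 1.03 exceeds both because the gates hold the suffixes in different proportions. After both changes it was 0.843 (0.788 to 0.903) in suffix 1 and 0.556 (0.527 to 0.588) in suffix 2.

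Most cells held an Hlf UMI in all gates: 89.6%, 94.1%, 86.9% and 72.0% of thinned cells in the order stem cell gate, CD150-low CD48-low, CD150-high CD48-high and CD150-low CD48-high. Unthinned, the shares were 95.1%, 94.5%, 93.6% and 85.9%. The unthinned shares of the stem cell gate and the CD150-low CD48-low gate were thus close, and the counts per cell differed, with 4.81 UMIs of Hlf per cell in the former and 6.295 in the latter despite its lower depth.

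Meis1 was level on either single change and stood below the stem cell gate where both had occurred. It lies at chr11:18879817-19018985 on the minus strand, and its promoter (chr11:19018970-19019219) holds 1 RUNX and 1 ETS match.
Meis1: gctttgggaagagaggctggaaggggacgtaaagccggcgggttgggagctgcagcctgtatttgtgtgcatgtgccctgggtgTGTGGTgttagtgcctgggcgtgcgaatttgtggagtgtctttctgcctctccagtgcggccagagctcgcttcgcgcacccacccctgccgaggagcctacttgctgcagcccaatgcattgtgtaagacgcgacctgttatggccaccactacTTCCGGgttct
The level of Meis1 in the stem cell gate was 344 CPM in suffix 1 and 359.8 CPM in suffix 2. It was 334 and 358 CPM in the CD150-low CD48-low gate, 322 and 386 CPM in the CD150-high CD48-high gate, and 226 and 243 CPM in the CD150-low CD48-high gate. The first 3 gates overlapped closely and the last lay below them in both suffixes. The ratios were 0.978 (0.921 to 1.04), 0.995 (0.945 to 1.05) and 0.667 (0.639 to 0.696), and the last was 0.658 and 0.675 in the suffixes. These classes depended on the cells taken: on loss of CD150 Meis1 was 0.617 over cells with over 2500 genes and under 5% mitochondrial UMIs, on gain of CD48 it was 0.786 with gates at the medians, and after both changes it was 0.856 with gates at the 90th and 10th percentiles and 0.425, or lower, under the strict cell filter named first. Of thinned cells, 93.1% in the stem cell gate and 83.6% in the CD150-low CD48-high gate held a Meis1 UMI (unthinned 95.7% and 95.2%).

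Lmo2 was below the stem cell gate in the CD150-low CD48-high gate, more so in suffix 2. The adaptor, on the plus strand at chr2:103957986-103981878, stood at 1099 and 1181 CPM in the stem cell gate and 1085 and 1144 CPM in the CD150-low CD48-low gate. It was 859 and 1094 CPM in the CD150-high CD48-high gate and 898 and 752 CPM in the CD150-low CD48-high gate. The suffixes thus differed in which CD48-high gate was the lowest. The ratio after both changes was 0.696 (0.68 to 0.713), with 0.817 (0.783 to 0.852) in suffix 1 and 0.637 (0.6195 to 0.655) in suffix 2, and 98.8% of thinned cells in that gate still held a Lmo2 UMI.

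Runx1, Erg and Etv6 differed least between the stem cell gate and the CD150-low CD48-high gate. Runx1 (chr16:92601466-92826149, minus strand) stood at 121 and 131 CPM in the stem cell gate and 105 and 103 CPM in the CD150-low CD48-high gate, a ratio of 0.810 (0.755 to 0.868). On the single changes Runx1 was farther from the stem cell gate than Meis1 over both suffixes, at 0.841 (0.758 to 0.933) on loss of CD150 and 0.895 (0.819 to 0.978) on gain of CD48. In suffix 1 alone this did not hold on gain of CD48, with Runx1 at 0.957 and Meis1 at 0.935. Erg (chr16:95359169-95586593, minus strand) stood at 24.4 and 21.8 CPM and at 20.97 and 18.3 CPM in the same gates, a ratio of 0.853 whose interval held 1 (0.724 to 1.01), on 170 UMIs in the stem cell gate. Etv6 (chr6:134035700-134270158, plus strand) stood at 137 and 118 CPM and at 134 and 129.6 CPM, a ratio of 1.06 (0.99 to 1.14). For all 3 genes, every ratio of either suffix lay between 0.785 and 1.18. Of thinned cells, 63.2% in the stem cell gate and 68.4% in the CD150-low CD48-high gate had an Etv6 UMI (unthinned 73.5% and 85.6%), and 66.1% and 59.1% had a Runx1 UMI (unthinned 78.9% and 80.7%).

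**Figure D2:**
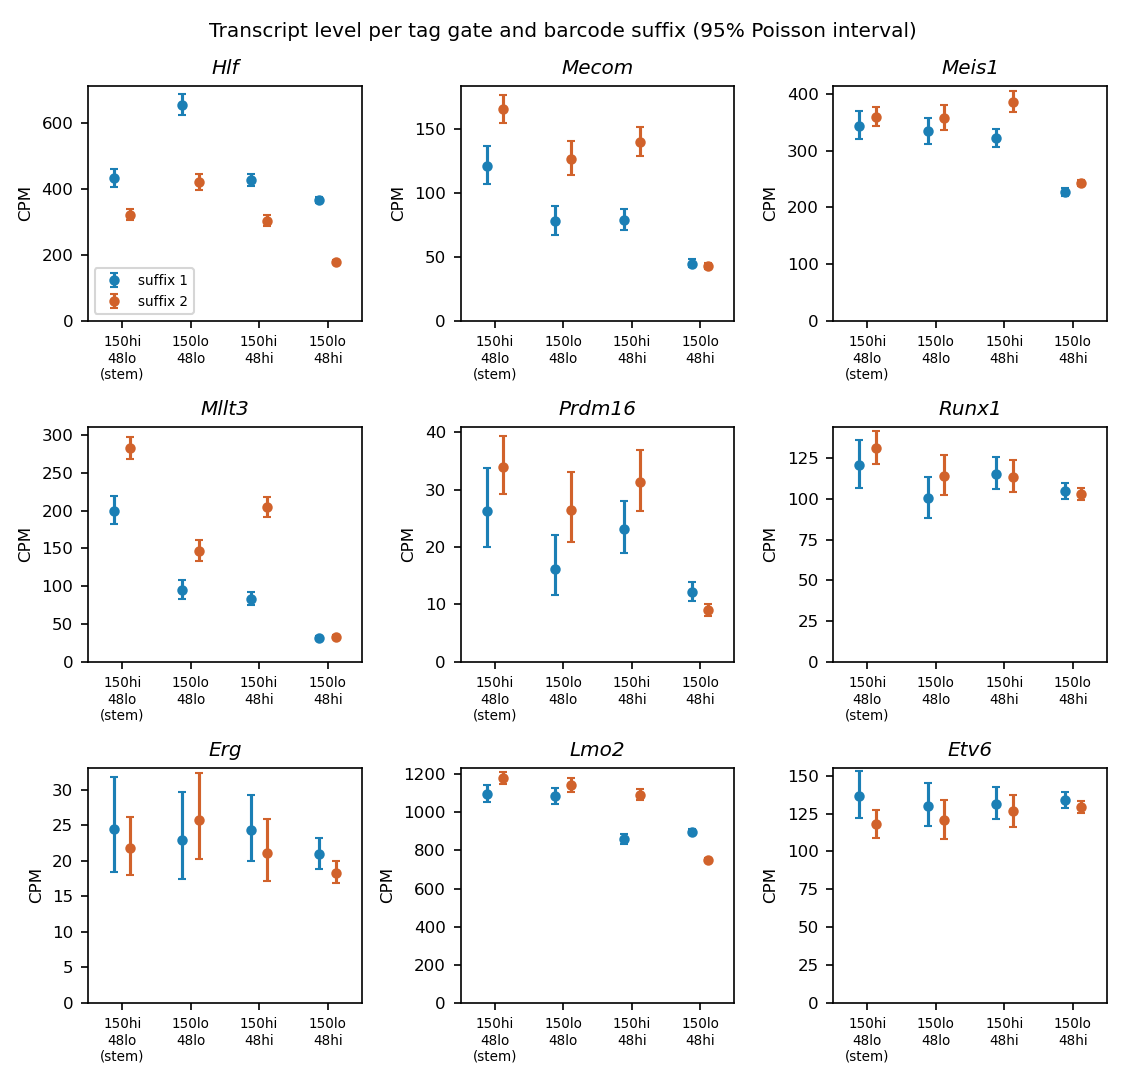
Level in CPM of each regulator in the 4 tag gates, with blue points for suffix 1, orange points for suffix 2 and bars for the 95% Poisson interval. Every axis starts at 0, and hi and lo stand for high and low tags. Mllt3, Mecom and Prdm16 are lower in the CD150-low CD48-high gate than in the stem cell gate in both suffixes, Hlf peaks in the CD150-low CD48-low gate (653 and 419 CPM), and Runx1, Erg and Etv6 stay between 0.785 and 1.18 times the stem cell gate.

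The step away from the stem cell gate was then followed along each tag, with cells placed in quartiles of the tag within their suffix. Among CD150-high cells, Mllt3 was 258 CPM in the lowest CD48 quartile (the stem cell gate, 555 cells), 182 CPM in the second (294 cells), 122 CPM in the third (100 cells) and 58.7 CPM in the highest (56 cells). Mecom was 152, 138, 82.5 and 62.1 CPM along the same quartiles. Both were lower with every quartile of CD48, and in each suffix as well, though the highest quartile of suffix 2 held only 10 cells. Mllt3 in that quartile was 43.9 CPM in suffix 1 (46 cells) and 116 CPM in suffix 2, so the pooled 58.7 CPM is mostly that of suffix 1. Meis1 (355, 372, 322 and 341 CPM) and Hlf (355, 381, 371 and 316 CPM) showed no such course. Lmo2 went from 1156 CPM to 1075, 884 and 807 CPM. The median depth grew from 13334 to 32784 UMIs per cell over these quartiles.

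Among CD48-low cells, the same was done for CD150. Mllt3 was 258 CPM in the highest CD150 quartile, 147 CPM in the third (275 cells), 81.7 CPM in the second (109 cells) and 89.4 CPM in the lowest (70 cells). Prdm16 was 31.7, 28.0, 12.1 and 11.3 CPM, the last on 9 UMIs. Hlf ran in the opposite direction, from 355 CPM in the highest quartile to 487, 579 and 618 CPM, with the largest step at the edge of the gate. In suffix 1 Hlf went from 432 to 601, 681 and 705 CPM, and in suffix 2 from 322 to 435, 295 and 445 CPM, where the second quartile held 30 cells, so the steady course belongs to suffix 1. Meis1 ranged between 326 and 355 CPM over the 4 quartiles.

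**Figure D3:**
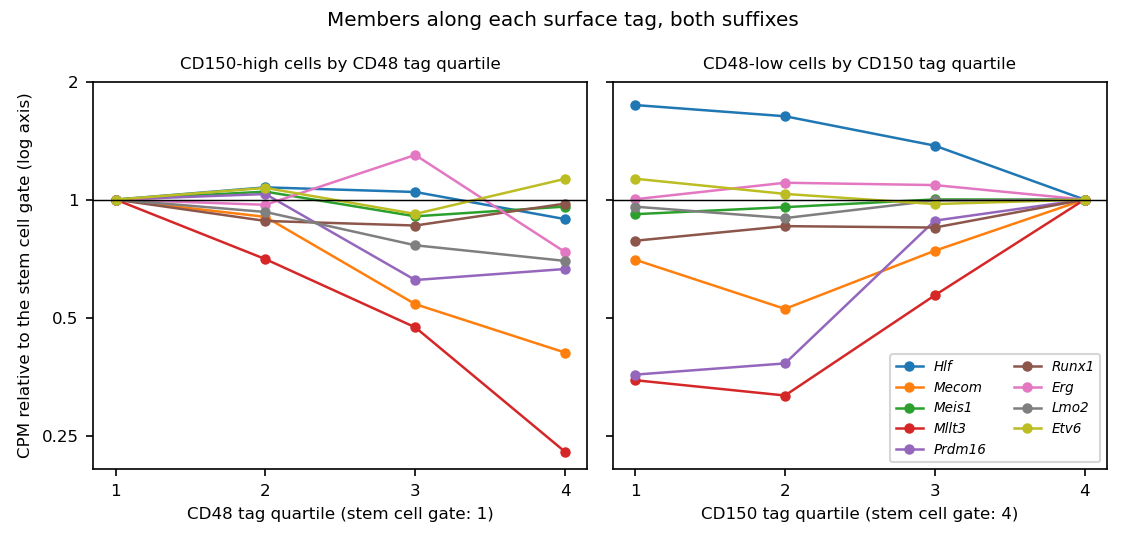
Level of each regulator relative to the stem cell gate (log axis, both suffixes) along the CD48 quartiles of CD150-high cells and the CD150 quartiles of CD48-low cells. Mllt3 (258 to 58.7 CPM) and Mecom (152 to 62.1 CPM) are lower with each CD48 quartile, and Hlf goes from 355 to 618 CPM from the highest to the lowest CD150 quartile.

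Within the stem cell gate Mllt3 and Hlf kept these directions along CD150. Cells with a CD150 tag above the median of the gate in their suffix had 1.40 times the Mllt3 of the others (1.27 to 1.53), 1.78 (1.46 to 2.17) in suffix 1 and 1.29 (1.16 to 1.43) in suffix 2. Mecom stood at 1.16 times (1.03 to 1.30), with intervals that held 1 in each suffix (0.926 to 1.51 and 0.991 to 1.30), and Hlf at 0.856 times (0.793 to 0.924), with 0.809 and 0.894 in the suffixes. Etv6 was 0.863 over both but 1.06 in suffix 1 and 0.783 in suffix 2. For the other 5 genes the interval held 1. For CLCA3A1, the third surface tag, the same split gave ratios from 0.978 to 1.14 with intervals that held 1 for all 9 genes. Behind these pooled values the suffixes were apart for Hlf, at 0.764 (0.672 to 0.868) in suffix 1 and 1.15 (1.05 to 1.27) in suffix 2, and for Mllt3, at 1.49 (1.22 to 1.81) and 0.988 (0.891 to 1.09). Lmo2 lay on opposite sides of 1 as well, at 1.12 (1.03 to 1.22) in suffix 1 and 0.935 (0.8896 to 0.983) in suffix 2.

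Cell cycle moved with the gates. The 8 cycling markers summed to 93.4 CPM in the stem cell gate, 173 CPM in the CD150-low CD48-low gate, 769.7 CPM in the CD150-high CD48-high gate and 1079 CPM in the CD150-low CD48-high gate, and all 8 had UMIs in every gate. In the same order the sums were 249.5, 245, 1214 and 1140 CPM in suffix 1. In suffix 2 they were 26.6, 110, 305 and 1044 CPM. Both suffixes were thus higher in the CD48-high gates, while the rise on loss of CD150 alone belonged to suffix 2. Ratios were therefore also taken over cells without a UMI of these markers, 925 in the CD150-low CD48-high gate and 409 in the stem cell gate, with median depths of 13436 and 13290 UMIs. Mllt3 stayed lower there, at 51.0 against 271 CPM, a ratio of 0.189 (0.176 in suffix 1 and 0.202 in suffix 2). Mecom stood at 0.406 and Prdm16 at 0.419, both still lower, with 0.610 for Prdm16 in suffix 1. Hlf, in contrast, was 352 against 347 CPM, a ratio of 1.02 (1.13 in suffix 1 and 0.850 in suffix 2), against 0.695 over all cells. Meis1 moved from 0.667 to 0.882 and Lmo2 from 0.696 to 0.837. On gain of CD48 alone, Mllt3 was 0.830 and Mecom 0.987 in cells without cycling UMIs, against 0.552 and 0.714 over all cells, and Hlf was 1.22 (1.32 in suffix 1 and 1.14 in suffix 2, both with intervals above 1) against 1.03. Mllt3 was thus level there over both suffixes. It was 0.603 (0.485 to 0.747) in suffix 1 and 0.907 with an interval that held 1 (0.822 to 1.001) in suffix 2. On loss of CD150 alone, Mllt3 was 0.527 and Hlf 1.61. These cells are also shallower than the 16343 UMIs of the whole CD150-low CD48-high gate, and whether division sets these levels was not tested.

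**Figure D4:**
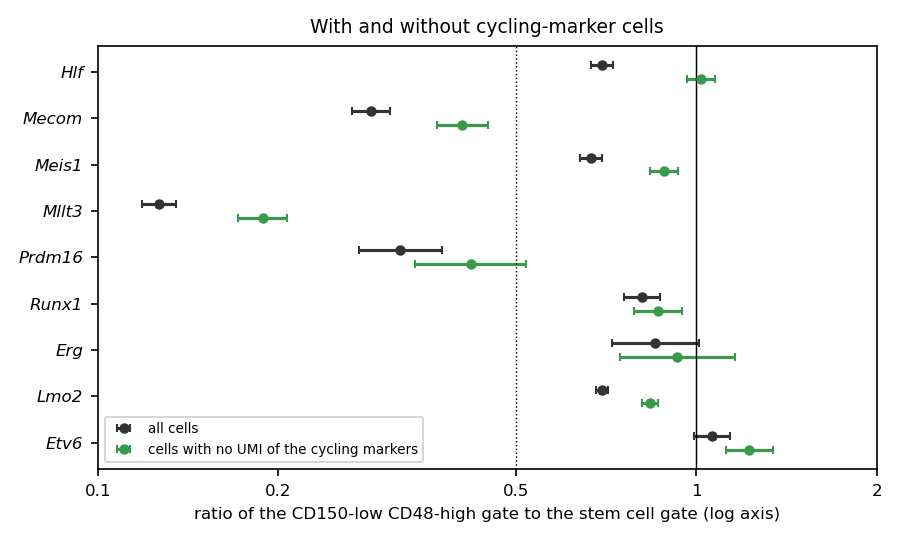
Ratio of the CD150-low CD48-high gate to the stem cell gate (log axis, both suffixes, 95% intervals) over all cells (black) and over cells with no UMI of the 8 cycling markers (green). Mllt3 (0.127 and 0.189), Mecom (0.286 and 0.406) and Prdm16 (0.320 and 0.419) lie left of the dotted line at 0.5 in both, whereas Hlf shifts from 0.695 to 1.02.

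The CD150-low CD48-high gate is itself a mixture, and its lymphoid primed list (Dntt, Il7r, Rag1 and Ccr9) summed to 329.5 CPM against 1.46 CPM in the stem cell gate, where Il7r, Rag1 and Ccr9 had no UMI. Its MPP list (Cd34, Flt3, Cd48 and Cd27) summed to 1055 CPM against 211 CPM. The 253 cells with the highest Mpo level, chosen as the upper 10% of the gate, stood for the myeloid end, and 685 cells with at least 3 UMIs of Dntt, a lymphoid recombination gene, for the lymphoid end. Mllt3 was 12.2 CPM (9.75 to 15.1) in the first set and 18.5 CPM (16.4 to 20.7) in the second. That is 0.0472 and 0.0716 times its level in the stem cell gate, with 0.0807 and 0.111 in suffix 1 and 0.0403 and 0.0518 in suffix 2, which gave 210 of the 253 Mpo-high cells. Mecom was 14.0 and 25.7 CPM in these sets (0.0921 and 0.169 times the stem cell gate) and Prdm16 4.82 and 6.16 CPM (0.152 and 0.195 times). Both were nearer to the stem cell gate in suffix 1, at 0.168 and 0.269 times for Mecom and 0.325 in either set for Prdm16, than in suffix 2, at 0.0770 and 0.114 for Mecom and 0.120 and 0.111 for Prdm16. The thinned share of cells with an Mllt3 UMI was 9.88% in the Mpo-high cells (median depth 27221 UMIs before thinning) against 80.4% in the stem cell gate (13334 UMIs). For a background, the 12 immunoglobulin-rich cells (median depth 34073 UMIs) held an Mllt3 UMI in 2 of 12 thinned cells (16.7%) and 14.4 CPM of Mllt3, so the Mllt3 of the Mpo-high cells is not read as expression. The 18.5 CPM of the Dntt cells lay close to this background, which rests on 6 UMIs, so the same limit bears on them. Of the 12 immunoglobulin-rich cells after thinning, none held Mecom or Prdm16 and 1 held Hlf, while 9 held Lmo2. Before thinning, Mecom and Prdm16 stood at 4.80 CPM each in these 12 cells, on 2 UMIs apiece. The Prdm16 of the Mpo-high cells (4.82 CPM) was at that background and that of the Dntt cells (6.16 CPM) near it. Neither is read as expression.

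Hlf was 82.5 CPM in the Mpo-high cells and 151 CPM in the Dntt cells, or 0.233 and 0.426 times the stem cell gate, lower than the 0.695 of the gate as a whole. In both sets it was higher in suffix 1, at 143 against 70.4 CPM in the Mpo-high cells and 227 against 74.96 CPM in the Dntt cells. Against the stem cell gate of the same suffix, Hlf was 0.331 and 0.219 times in the Mpo-high cells and 0.524 and 0.233 times in the Dntt cells. Meis1 stood at 133 and 163 CPM, 0.375 and 0.4599 times the stem cell gate. Lmo2 was 0.560 and 0.648 times the stem cell gate, and Erg 0.614 (0.474 to 0.792) and 0.662 (0.541 to 0.811) times. Runx1 stood at 0.741 (0.670 to 0.818) in the Mpo-high cells and was level in the Dntt cells, at 0.819, and Etv6 was level in both, at 0.927 and 0.954 times. Another 26 cells, 25 of them of suffix 2, with at least 2 UMIs of Gata1 or Klf1, factors of the erythroid and megakaryocytic path, had Hlf at 0.212 times and Runx1 at 1.01 times the stem cell gate, and Meis1 at 0.693 times (0.586 to 0.814). Within the gate, cells with a UMI of Flt3, the receptor that marks MPPs with lymphoid potential, had 0.472 times the Mllt3 of cells without one (0.425 to 0.524) and 0.6098 times the Mecom, while Runx1 was 0.991 times. In suffixes 1 and 2 these were 0.590 and 0.4205 for Mllt3 and 0.759 and 0.540 for Mecom. Of the 653 cells without a Flt3 UMI, 550 were of suffix 2, and their median depth was 14072 UMIs against 17614.

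Per cell, several regulators were present together at any stage. At 9000 UMIs a cell of the stem cell gate held UMIs of a median of 6 of the 9 regulators, as did cells of the CD150-low CD48-low and CD150-high CD48-high gates, and the median was 5 in the CD150-low CD48-high gate. The combination of Hlf, Mecom and Mllt3 separated the gates more, with 51.8% of thinned cells in the stem cell gate, 34.1% and 36.5% in the gates with a single change, and 8.21% in the CD150-low CD48-high gate. In the stem cell gate this share was 45.5% in suffix 1 and 54.5% in suffix 2. The suffixes were farther apart in the gates with a single change. They stood at 24.7% and 42.1% in the CD150-low CD48-low gate and at 24.3% and 47.1% in the CD150-high CD48-high gate. Spearman correlations between pairs of regulators across thinned cells of the stem cell gate ran from -0.126 to 0.220 over the 36 pairs in suffix 1 (156 cells) and from -0.0864 to 0.124 in suffix 2 (363 cells). The highest value was that of Hlf and Lmo2 in suffix 1, a pair with UMIs in nearly all of these cells, and it was 0.0204 in suffix 2.

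The suffixes differed for some regulators in every gate. Hlf of suffix 2 was 0.744 times (0.687 to 0.806) that of suffix 1 in the stem cell gate and 0.491 times (0.473 to 0.509) in the CD150-low CD48-high gate. Mllt3 and Mecom were higher in suffix 2 in the first 3 gates, by 1.41, 1.55 and 2.46 times for Mllt3 and 1.37, 1.63 and 1.78 times for Mecom, but not in the CD150-low CD48-high gate, at 1.06 (0.952 to 1.17) and 0.956 (0.874 to 1.05). The same ratio lay between 0.983 and 1.14 for Runx1 and between 0.862 and 0.968 for Etv6. Library, age and the tag counts behind the gates cannot be told apart in these values, and the difference was not tested.

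Other transcription factors give the setting. Of 28 partners and relatives of the 9 regulators, 26 had enough UMIs in the comparison of the CD150-low CD48-high gate with the stem cell gate: 4 were lower, 8 level and 1 higher, with a median ratio of 0.964, where 7.56% of all tested genes were lower, 47.6% level and 8.41% higher, with a median of 1.03. The same background, over both suffixes, holds for the lists that follow. The counts depended on the library. In suffix 1, 2 of 24 tested partners were lower, 12 level and 2 higher, and in suffix 2, 4 of 25 were lower, 7 level and 3 higher. Meis3, a close relative of Meis1, had the lowest ratio of that list at 0.196 (0.142 to 0.269), on 73 UMIs in the stem cell gate. At the other end were the relatives of Runx1: Runx2, known from bone, at 1.92 (1.70 to 2.18) and Runx3, known from T cells, at 6.28 (5.23 to 7.59). Runx3 was 25.3 and 11.8 CPM in the stem cell gate and 84.4 and 108 CPM in the CD150-low CD48-high gate, so it was higher in each suffix while Runx1 was level or nearly so.

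Among 28 other stem and progenitor factors, all with enough UMIs, 8 were lower, 9 level and 3 higher, with a median of 0.843. In suffix 1, 5 of 27 tested were lower, 9 level and 1 higher, and in suffix 2, 9 of 28 were lower, 9 level and 5 higher. Hoxb5, a homeobox gene known as a mark of long-term HSCs, was 0.108 (0.0888 to 0.131), at 17.3 and 41.4 CPM in the stem cell gate and 1.64 and 4.86 CPM in the CD150-low CD48-high gate. Mycn, a MYC family factor, was 0.134 (0.125 to 0.144), at 126 and 279 CPM against 33.3 and 30.1 CPM. Both lay near Mllt3 (0.127), and both were also low on loss of CD150 alone, at 0.411 for Hoxb5 and 0.343 for Mycn. The highest were Gfi1, a zinc finger repressor, at 2.29 (1.88 to 2.82) and Sox4, an HMG-box factor of early lymphoid cells, at 2.96 (2.81 to 3.12). Of 16 lineage factors, 11 had enough UMIs, with 1 lower, 2 level and 4 higher and a median of 1.81. The lowest were Zfpm1, the GATA cofactor FOG1, at 0.439 (0.407 to 0.473) and Id2, an inhibitor of bHLH factors, at 0.566 (0.484 to 0.665). The highest were Cebpa, the granulocyte and monocyte factor, at 10.7 (7.199 to 16.5) and Satb1, a chromatin organizer of lymphoid cells, at 22.8 (16.5 to 32.4). These stood on only 25 and 37 UMIs in the stem cell gate.

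**Figure D5:**
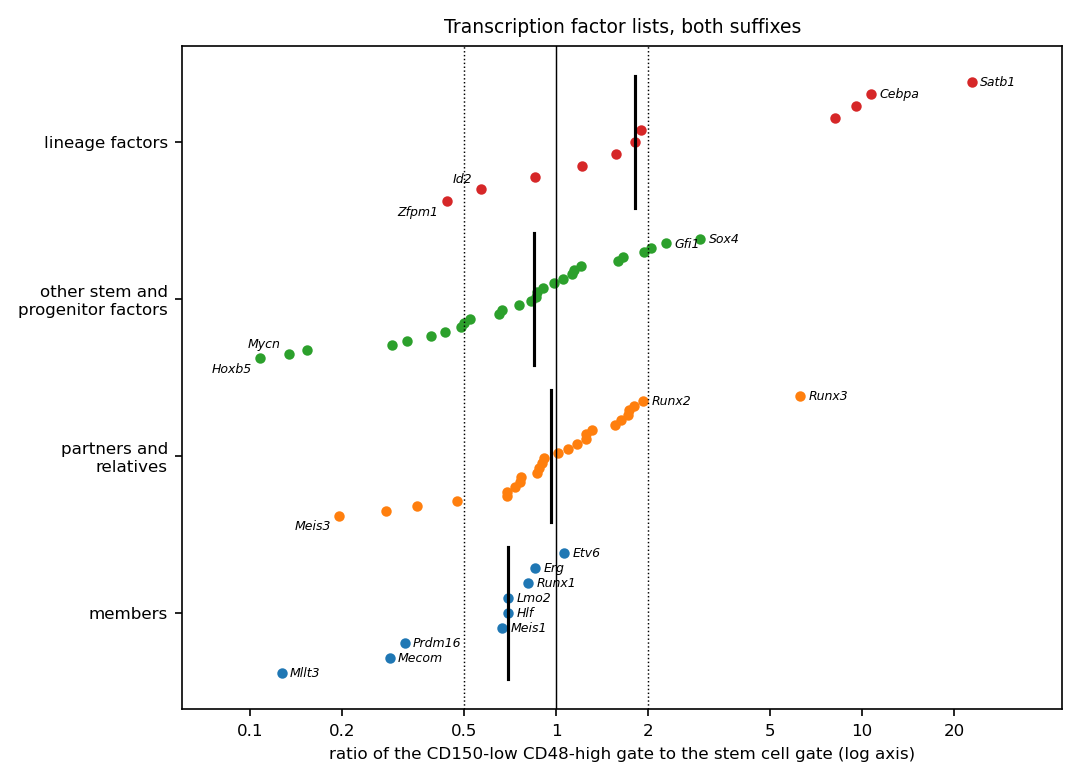
Ratio of the CD150-low CD48-high gate to the stem cell gate (log axis, both suffixes) for the 9 regulators and each tested gene of the 3 other lists, with a black bar at the median of a list and dotted lines at 0.5 and 2. The medians are 0.695 for the regulators, 0.964, 0.843 and 1.81, and the range runs from Hoxb5 (0.108) to Satb1 (22.8).

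Likeness was measured as Pearson's r of log2(CPM + 10) over the 8 sums of gate and suffix, among 7397 genes with at least 20 CPM in 1 of them. These 8 points share 2 libraries, so r is a description. Most like Hlf were Pbx2 (0.974), Kmt2c (0.973) and Ldb1 (0.964). Most like Mecom were Efcab14 (0.996), Pcmtd1 (0.995) and Tinagl1 (0.992). Most like Meis1 were Fnbp1l (0.979), Arhgef12 (0.975) and Nbdy (0.974). High r did not mean a like range. Pbx2 lay between 34.1 and 49.5 CPM over the 8 sums, where Hlf lay between 179 and 653 CPM, while Tinagl1 ran from 4.51 to 63.8 CPM. Among the regulators themselves, r was 0.989 for Mecom and Mllt3, 0.969 for Mecom and Prdm16 and 0.930 for Mecom and Meis1, but 0.253 for Hlf and Mecom and -0.565 for Mecom and Etv6.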

How the data were processed

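LSK cells of young and old mice were profiled by CITE-Seq (Chromium 3 prime chemistry), with 1 library per age. The authors counted UMIs per gene and cell with Cell Ranger 3.1.0 (builds mm10 and GRCm38 per the submitters' processing notes), merged both libraries with its aggr command, which equalizes their depth, and deposited the UMI counts, so the depth before that step is unknown here. The deposited tag values are log10 tag counts that the authors made with CITE-seq-Count; 10 to the power of 100% of the finite values is whole to within 1e-06. The suffixes held 27073429 and 43434366 UMIs in gated cells, with medians of 15240 and 14891 UMIs per cell.

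Cells were filtered as in the methods of the study (4068 of 4688 kept; 82 of these had no tags) and gated by tags alone, so that no transcript chose a gate. Summed counts per gate were divided by the total UMIs of the gate, with exact Poisson intervals for levels, exact conditional binomial intervals for ratios and exact Clopper-Pearson intervals for shares. All are 95% intervals and cover counting error only. Shares were also taken after thinning each cell to 9000 UMIs (seed 1), which left out 36, 82, 6 and 92 cells of the gates in the order of the report. Doublets called by scrublet (37 cells, 0.910%) were kept. Python 3.11.15, numpy 2.4.6, scipy 1.17.1, pandas 2.3.3 and scanpy 1.11.5 were used, and the ratio and its interval were tested on simulated counts. Positions are from GENCODE M21 and promoters from RefSeq (GRCm38.p6).

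The genes and lists were chosen with earlier results of these data known. The text names the 9 regulators, from each other list the 2 lowest and 2 highest ratios of the CD150-low CD48-high gate, and the 3 genes most like Hlf, Mecom and Meis1, except that 1 gene among the lowest ratios is not reported here. Marker genes serve as checks. Alternatives changed the gates, the cell filter, the depth, the scaling and the cells included. Other experiments of the study were not analysed here.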

Additional observations from a re-analysis of the deposited data

Results flagged for a closer look

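Cells outside the gates also held transcripts of the regulators. The 82 kept cells without tag values held 2087 UMIs of the 9 genes, with Hlf at 500.3 CPM (454 to 549.9), Mecom at 90.8 CPM (71.7 to 113) and Mllt3 at 75.6 CPM (58.4 to 96.4). The 620 cells that failed the cell filter held 6946 UMIs of them, with Hlf at 336 CPM, Meis1 at 402 CPM and Mllt3 at 104 CPM. Neither set enters a comparison between gates, except that the filter was lifted in one alternative.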

How the results depend on the processing

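No paired analysis was possible because no result comes from a test; gates were compared within each suffix. The count of lower regulators on loss of CD150, 1 (Mllt3), was 0 with gates at the 90th and 10th percentiles (ratio of Mllt3 0.663), with centred log ratios of the tags (0.545), without cells that held a cycling UMI (0.527), in suffix 2 alone (0.520) and with the mean of single-cell CPM (0.528), and 2 (Mecom and Prdm16, with Mllt3 at 0.540) over cells with over 2500 genes and under 5% mitochondrial UMIs, which left 57, 36, 36 and 238 cells in the gates. On gain of CD48 the count of 0 was 2 (Mecom and Mllt3) with gates at the medians and under that strict filter, and 1 (Mllt3) in suffix 1 alone. In the CD150-low CD48-high gate the count of 3 was 5 under the strict filter, with Hlf and Meis1 added, and 4 with gates at the medians, with Hlf added at 0.444. Over all genes, a minimum of 20 or 1 in place of 100 UMIs raised the lower calls on loss of CD150 from 138 to 443 or 2346 and the higher calls from 100 to 298 or 1753. On gain of CD48 they went from 61 to 282 or 1897 and from 335 to 565 or 2277, and after both changes from 857 to 1632 or 3443 and from 954 to 1372 or 4249. Of 405 alternative ratios of the regulators, 265 lay within the interval of the value given, and 16 of 27 ratios stayed on the same side of 1 under all 15 alternatives. Hlf in the CD150-low CD48-high gate ran from 0.444 to 1.02 (without cycling UMIs). The strict filter also moved Hlf on gain of CD48 (0.534), Meis1 on loss of CD150 (0.617), Prdm16 on loss of CD150 (0.234), Mecom on loss of CD150 (0.431) and on gain of CD48 (0.339), Mllt3 on gain of CD48 (0.245) and Meis1 after both changes (0.425) by over 1.5 times, and gates at the medians moved Prdm16 on gain of CD48 (0.5704). Counts limit Prdm16 and Erg most.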
